A study of Mus musculus with 9 samples.

Results

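The comparison described here spans the whole postnatal series from its youngest to its oldest age: cardiomyocyte libraries of CD-1 (ICR) mice at day 56 after birth (P56, 3 libraries) against day 1 (P1, 3 libraries), over all genes of the table. These are 6 of the 9 libraries of the series, and the other 3 come from day 14 (P14). The mice carried no allele or treatment that the sample labels name, although a protocol text shared by the series speaks of animals taken after surgery. Hearts were pooled for each library, 12 at P1 and 6 to 7 at the later ages, so each value is that of a pool and not of 1 animal. The labels name the material as isolated cardiomyocytes with ribosomal RNA removed. Their protocols describe both the isolation of whole muscle cells from ventricles and the sorting of nuclei that carry Pcm1, and which of the procedures gave each library is not settled by them. By the design text these are biological triplicates. The 2 ages were set side by side because their levels of transcripts from other heart cells lie closest: 57 markers of such cells had a mean log2 CPM between 1.264 and 1.757 in the P1 libraries, between 0.476 and 1.661 in those of P56 and between 2.331 and 3.646 in those of P14. This mean is called the marker score below. It averages markers of fibroblasts, endothelium, leukocytes, smooth muscle and pericytes, and epicardium, and does not separate these cell types. A gene that is itself 1 of these markers is, with the score as a term, fitted in part on its own level.

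Between birth and adulthood a mouse cardiomyocyte stops dividing, enlarges, orders its sarcomeres and membrane systems, and turns from glucose and lactate to fatty acids and other mitochondrial fuels. Many contractile, metabolic and ribosomal proteins are encoded by pairs of genes, with 1 form used before birth and the other in adult muscle, and the change of form is a familiar measure of maturity. The 6 libraries held between 45866453 and 58538025 counts each. Levels below are in CPM, counts relative to the TMM-scaled library total, and are compared between ages for 1 gene at a time, never between genes. Changes are log2 values, P56 minus P1, from edgeR's quasi-likelihood fit of all 9 libraries, given ± SE, and a gene is said to have risen or fallen where its p, adjusted by the Benjamini-Hochberg method over 15817 genes, lay under 0.05. For the genes given with their values in each library, the libraries of the ages do not overlap where the gene rose or fell, and overlap where it did not pass the test, except for Tnni3.

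Cardiomyocyte transcripts were abundant at both ages. Tnnt2, cardiac troponin T, read 2670, 2530 and 2350 at P1 and 2240, 2940 and 3220 CPM at P56 (log2 change 0.15 ± 0.17, adjusted p = 0.448). Actn2, the Z-disc actinin, read 1130, 1140 and 1080 at P1 and 930, 1210 and 1250 CPM at P56 (log2 change 0.02 ± 0.14, adjusted p = 0.919). Neither passed the test, and the libraries of the ages overlapped. Pcm1, the centriolar satellite gene whose protein marks cardiomyocyte nuclei, read 242, 252 and 250 at P1 and 177, 169 and 174 CPM at P56 and fell (log2 change −0.52 ± 0.06, adjusted p = 3.86e-05). The 10 cardiomyocyte markers had a median change of 0.01, which became −0.10 with upper-quartile scaling and −0.23 with library totals alone. Of these 10 only Myh6 rose (10.0%, against 30.9% of all genes) and Nkx2-5, Pcm1 and Actc1 fell (30.0%, against 31.7%). The calls of Myh6 and Actc1 depended on single libraries, as given with the sarcomere genes. In bulk libraries fewer cells of a type and less RNA per cell cannot be told apart. The labels do not say how animals were assigned to pools, and p-values measure the spread between these pools.

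Of 15817 genes, 4888 (30.9%) rose and 5016 (31.7%) fell between P1 and P56, so that 62.6% differed. Changes of log2 1 or more were found for 2016 rises (12.7%) and 2562 falls (16.2%). The middle of the distribution was close to 0: the median change was −0.03, the quartiles were −0.58 and 0.48, and the 5th and 95th percentiles were −2.69 and 2.0. All 3 P56 libraries lay above all 3 P1 libraries for 35.0% of genes, and all 3 lay below them for 37.1%. The balance of the directions depended on how libraries were scaled. With library totals alone the median moved to −0.27 and 3290 genes rose against 6986 that fell (32.0% of the calls were rises), and with upper-quartile scaling it moved to −0.14 with 4098 rises and 6017 falls, against 49.4% rises in the fit reported. Among calls of log2 1 or more the share of rises was 44.0%, against 32.5% with library totals alone and 38.7% with upper-quartile scaling. The medians of the 52 gene lists described below shifted by −0.22 to −0.25 with library totals alone, which turned 10 of them negative, and by −0.10 to −0.12 with upper-quartile scaling, which turned 7. With library totals alone falls outnumbered rises in 8 lists where rises had outnumbered falls, and the counts are given with each of these lists. Without replicate 1 of P56, which stood apart from the other P56 libraries on the second principal component, 4709 genes rose and 4817 fell.

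**Figure D1:**
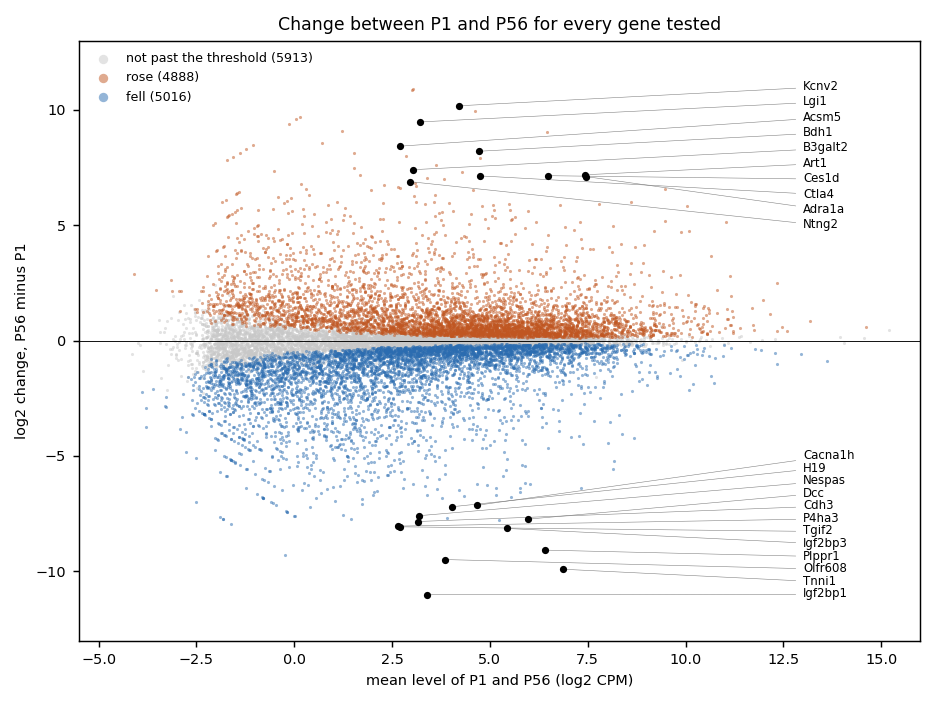
Log2 change from P1 to P56 (vertical axis) against the mean level of the 2 ages in log2 CPM (horizontal axis) for 15817 genes, 1 point per gene. Orange points rose and blue points fell at adjusted p under 0.05, grey points did not pass; black points with names are genes described in the text from the 12 largest rises and 12 largest falls among genes of at least 10 CPM with an established symbol, such as Kcnv2 (10.18) and Tnni1 (−9.91).

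Genes with an established symbol (no predicted-gene or clone name) that reach 10 CPM in the higher age and whose libraries do not overlap were ranked by size. Among their 12 largest rises were Kcnv2, Lgi1, Acsm5, Bdh1, B3galt2, Art1, Ces1d, Ctla4, Adra1a and Ntng2, with log2 changes from 6.89 for Ntng2 to 10.18 for Kcnv2. They encode enzymes, channels, receptors and cell surface proteins. Kcnv2, a silent subunit of voltage-gated potassium channels, read 0.0158, 0.0379 and 0.036 at P1 and 31.7, 37.9 and 41 CPM at P56 (log2 change 10.18 ± 0.33, adjusted p = 9.9e-09). Art1, a muscle ADP-ribosyltransferase, read 2.18, 2.46 and 2.36 at P1 and 314, 352 and 358 CPM at P56 (log2 change 7.19 ± 0.26, adjusted p = 1.81e-08). Ces1d, a carboxylesterase that hydrolyses lipid esters, read 1.06, 1.36 and 1.33 at P1 and 165, 177 and 191 CPM at P56 (log2 change 7.15 ± 0.11, adjusted p = 3.56e-10). Each of these genes was low at P1 and had its P56 libraries together, at values that differed by less than 2-fold within the age. Lgi1 and Ntng2 encode a secreted and a membrane-anchored protein known from synapses, and B3galt2 a galactosyltransferase; they rose by 9.48, 6.89 and 7.41. Acsm5, an acyl-CoA synthetase of mitochondria, rose by 8.43. Ctla4, an inhibitory receptor known from T cells, read 0.395, 0.341 and 0.396 at P1 and 43.7, 55.8 and 61.3 CPM at P56 (log2 change 7.14 ± 0.28, adjusted p = 3.37e-08). Several of them overlap a gene on the opposite strand, Acsm5 with Pdilt, B3galt2 with Cdc73, Art1 with Art5 and Chrna10. Whether the authors' counting used strand is not stated in these sources, so reads of such partners cannot be told apart. The SE of the changes printed without one lay between 0.05 and 1.41.

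The 12 largest falls were Igf2bp1, Tnni1, Olfr608, Plppr1, Igf2bp3, Tgif2, P4ha3, Cdh3, Dcc, Nespas, H19 and Cacna1h. Igf2bp1 and Igf2bp3 encode RNA-binding proteins of fetal tissues that bind Igf2 and other transcripts. Igf2bp1 read 21.6, 20.1 and 21.7 at P1 and 0, 0 and 0.0223 CPM at P56; a single count remained over the P56 libraries, in replicate 3, and the ratio of P1 to P56 was 2810 with a 95% counting interval of 503 to 111000. Igf2bp3 read 83.7, 88.4 and 85.1 at P1 and 0.317, 0.367 and 0.223 CPM at P56 (log2 change −8.14 ± 0.24, adjusted p = 5.43e-09). Plppr1, a membrane protein of the phospholipid phosphatase-related family, read 176, 173 and 158 at P1 and 0.43, 0.253 and 0.245 CPM at P56 (log2 change −9.08 ± 0.24, adjusted p = 3.54e-09). Dcc, the netrin receptor of growing axons, read 117, 132 and 122 at P1 and 0.679, 0.528 and 0.512 CPM at P56 (log2 change −7.74 ± 0.17, adjusted p = 1.47e-09). Olfr608, an olfactory receptor gene, read 29.6, 29.4 and 28.1 at P1 and 0, 0.023 and 0.0891 CPM at P56; its change of −9.49 became −11.01 without replicate 3 of P56, which held most of its few P56 counts. Tgif2 encodes a repressor of TGF-beta and retinoid targets, P4ha3 a collagen prolyl hydroxylase subunit and Cdh3 placental cadherin; they changed by −8.07, −8.04 and −7.84, and P4ha3 by −8.96 without replicate 1 of P56. Nespas (−7.59) lies on the opposite strand of Gnas, and its value may hold reads of that gene. At P14 the means of these 12 genes lay between 0.282 CPM for Igf2bp1 and 13.6 CPM for H19, below their P1 means in each case.

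Sarcomere genes of adult muscle rose more often than they fell, and fetal and stress-associated forms fell more often than they rose. Of 26 adult sarcomere genes tested, 14 rose (53.8%, against 30.9% of all genes) and 3 fell, with a median change of 0.37. With library totals alone 9 rose and 4 fell, with a median of 0.12, and with the marker score as a term the median was 0.19. The largest rises were those of Xirp2, Tcap, Lmod2, Cmya5 and Myoz2, all of which sit at the Z-disc, at the ends of thin filaments or at the intercalated disc. Xirp2, an actin-binding Xin repeat protein, read 35.4, 31.4 and 35 at P1 and 631, 599 and 634 CPM at P56 (log2 change 4.19 ± 0.09, adjusted p = 1.47e-09). Tcap, the titin cap, read 5.91, 5.69 and 7.19 at P1 and 39.7, 34.4 and 39.1 CPM at P56 (log2 change 2.59 ± 0.16, adjusted p = 5.68e-07). Lmod2, which lengthens thin filaments, read 63.3, 58 and 68.1 at P1 and 259, 225 and 231 CPM at P56 (log2 change 1.92 ± 0.10, adjusted p = 1.7e-07). Cmya5, or myospryn, changed by 1.55 and Myoz2, a calcineurin-binding Z-disc protein, by 1.13. The 3 falls were small: Myl2, the ventricular regulatory light chain (log2 change −0.51 ± 0.16), Tnnc1, cardiac troponin C (log2 change −0.43 ± 0.13), and Actc1, cardiac actin (log2 change −0.36 ± 0.14). These calls rested on single libraries. For Myl2 the test gave adjusted p = 0.0567 to 0.0733 without replicate 1 of P1, or replicate 1 of P56. For Tnnc1 it gave adjusted p = 0.0545 to 0.0609 without replicate 3 of P1, or replicate 1 of P56. For Actc1 it gave adjusted p = 0.11 to 0.152 without replicate 1 or 3 of P1, or replicate 1 or 2 of P56. Ttn, which took the most counts of any gene, read 34500, 33700 and 27400 at P1 and 32600, 47400 and 49600 CPM at P56, and its libraries of the 2 ages overlapped (log2 change 0.44 ± 0.19, adjusted p = 0.0709); it was called without replicate 1 of P56 (0.61), as it was with DESeq2 and in the fit of the 6 libraries.

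Fetal and stress-associated sarcomere genes had a median change of −1.42. Of 16, 10 fell (62.5%, against 31.7% of all genes) and 4 rose (25.0%, against 30.9%). Tnni1, the troponin I form of slow skeletal muscle and of the heart before birth, read 244, 230 and 231 at P1 and 0.204, 0.276 and 0.245 CPM at P56 (log2 change −9.91 ± 0.18, adjusted p = 3.56e-10), with 1.29 CPM at P14. Myh7, the beta myosin heavy chain, read 535, 557 and 536 at P1 and 89.5, 109 and 126 CPM at P56 (log2 change −2.33 ± 0.20, adjusted p = 5.28e-06). Myh6, the alpha chain, read 2750, 2590 and 2500 at P1 and 3350, 4550 and 4700 CPM at P56 (log2 change 0.68 ± 0.21, adjusted p = 0.0171), and its call was lost in 3 fits that left out a library (adjusted p = 0.0555 to 0.0592 without replicate 3 of P1, or replicate 2 or 3 of P56). Tnni3, the adult cardiac troponin I, read 140, 138 and 140 at P1 and 145, 197 and 202 CPM at P56 and did not pass (log2 change 0.37 ± 0.20, adjusted p = 0.129), although it was called in the fit of the 6 libraries alone (adjusted p = 0.0133). Troponin I thus changed mainly through its fetal form. Acta2, the smooth muscle actin that neonatal cardiomyocytes also carry, read 96.8, 82.4 and 109 at P1 and 7.86, 10.7 and 8 CPM at P56 (log2 change −3.44 ± 0.19, adjusted p = 2.3e-07). Myl9, a smooth muscle light chain, read 24.5, 20.9 and 25.3 at P1 and 0.725, 0.781 and 0.401 CPM at P56 (log2 change −5.21 ± 0.33, adjusted p = 5.53e-07). Markers of smooth muscle and pericytes summed to 678 to 733 CPM at P1 and 576 to 632 CPM at P56. Of these 10 markers 3 fell (Mcam, Cnn1 and Cspg4), a share of 30.0%, close to the 31.7% of all genes. The part of smooth muscle and pericytes in the falls of Acta2 and Myl9 was not tested. The 4 rises were Myl1, Acta1, Nppb and Tagln. Myl1, a fast skeletal light chain, read 1.11, 1.14 and 1.06 at P1 and 12.6, 15.4 and 17.8 CPM at P56 (log2 change 3.79 ± 0.16). Acta1, skeletal actin, read 1.69, 1.52 and 1.96 at P1 and 17.3, 18.4 and 20.4 CPM at P56 (log2 change 3.44 ± 0.25). Nppb, the B-type natriuretic peptide, read 15, 14.1 and 17.3 at P1 and 36.6, 27.1 and 34.4 CPM at P56 (log2 change 1.08 ± 0.13). Tagln changed by 0.64 ± 0.22, and its call was not stable (adjusted p = 0.0526 to 0.114 without replicate 1 or 2 of P1, or replicate 1 or 2 of P56). Nppa, the atrial natriuretic peptide, did not pass, with overlapping libraries (14.4, 14.6 and 21.5 at P1 and 31.6, 14.9 and 15.3 CPM at P56; log2 change 0.29 ± 0.35, adjusted p = 0.496); it was called only with the marker score as a term.

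Ratios of an adult to an early form within a library, with 0.5 added to each count, need no scaling between libraries, and 15 of 17 such pairs had all P56 ratios above all P1 ratios. Levels of single genes often parted the ages too: 35.0% of all genes lay wholly higher at P56 and 37.1% wholly lower. The pairs and their adult forms were chosen with earlier results of these data known. With 3 libraries against 3 the exact two-sided permutation test over libraries cannot go below p = 0.1, and it gave p = 0.1 for these 15 pairs and for the pair that moved the other way (0.106 after adjustment over the 17 pairs). The log2 ratio of Tnni3 to Tnni1 was −0.8, −0.73 and −0.72 at P1 and 9.4, 9.42 and 9.62 at P56, a difference of 10.23. The ratio of Myh6 to Myh7 went from 2.36, 2.22 and 2.22 to 5.23, 5.39 and 5.22, a difference of 3.01, and stood a little higher at P14, at 5.51 to 5.61. The ratio of Lmna, the A-type lamin of mature nuclei, to Lmnb1 went from −1.78, −1.73 and −1.75 to 1.04, 1.28 and 1.42 (difference 3.0). Ventricular Myl2 gained on atrial Myl7 by 2.85, muscle creatine kinase Ckm on brain-type Ckb by 1.83, insulin-responsive Slc2a4 on Slc2a1 by 1.83, and Hk2 on Hk1 by 1.94. The smallest gains without overlap were those of Slc25a4 on Slc25a5 (0.16) and Pygm on Pygb (0.51). Pgam2, the muscle phosphoglycerate mutase, lost on Pgam1 by 0.55, and for Cox6a2 over Cox6a1 the ages overlapped (difference 0.19, exact permutation p = 0.4).

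**Figure D2:**
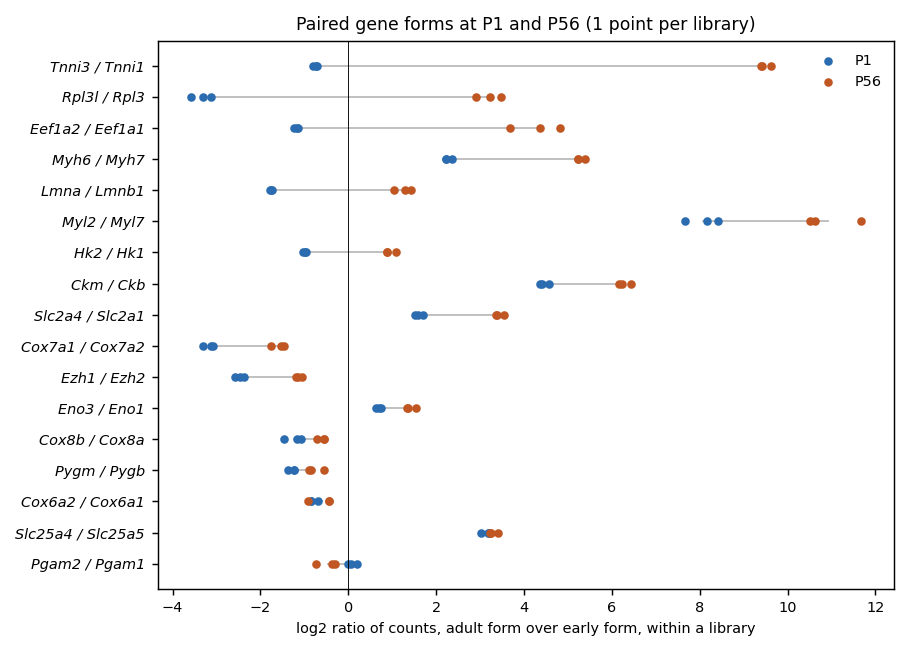
Log2 ratio of counts of an adult form over its early form within a library (horizontal axis) for 17 gene pairs (vertical axis), 1 point per library, blue for P1 and orange for P56; the grey lines join the means of 3 libraries. The P56 points lie to the right of the P1 points in 15 pairs, by up to 10.23 for Tnni3 over Tnni1, overlap them for Cox6a2 over Cox6a1 and lie to the left for Pgam2 over Pgam1.

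Genes of membrane excitability changed in both directions with many large members. Of 23 potassium and pacemaker channel genes 14 rose (60.9%, against 30.9% of all genes) and 6 fell (26.1%, against 31.7%). Of the rises 11 were of log2 1 or more, and 12.7% of all genes rose by as much. The median was 0.70 (0.46 with library totals alone). Kcnd3 and Kcnd2 encode the pores of the fast transient outward current that shortens the rodent action potential. Kcnd3 read 11.4, 11.8 and 12.7 at P1 and 663, 824 and 820 CPM at P56 (log2 change 6.01 ± 0.21, adjusted p = 1.51e-08). Kcnd2 read 579, 555 and 560 at P1 and 4240, 3790 and 3830 CPM at P56 (log2 change 2.81 ± 0.09, adjusted p = 1.27e-08), and their partner Kcnip2 changed by 1.36. Kcnj3, a subunit of the acetylcholine-gated potassium channel, read 90.2, 79.1 and 87.5 at P1 and 894, 831 and 908 CPM at P56 (log2 change 3.36 ± 0.10, adjusted p = 5.22e-09). Kcnj2, the main inward rectifier, read 32.4, 40.3 and 36.1 at P1 and 107, 96.7 and 92.9 CPM at P56 (log2 change 1.45 ± 0.10, adjusted p = 7.82e-07). Kcnc1 also rose (5.99). Among the falls, Kcne1, the small subunit of the slow delayed rectifier, read 40.9, 42.3 and 36.5 at P1 and 0.226, 0.344 and 0.557 CPM at P56 (log2 change −6.72 ± 0.21, adjusted p = 7.23e-09) and was still at 24.6 CPM at P14. Kcna4, the pore of the slow transient outward current, read 26.8, 26.8 and 26.5 at P1 and 5.44, 4.98 and 5.81 CPM at P56 (log2 change −2.30 ± 0.09, adjusted p = 2.43e-08). Kcnh7 changed by −5.08. Kcnq1, the pore that Kcne1 modulates, changed less (log2 change −0.51 ± 0.09). The transient outward channels thus held rises of both Kcnd genes beside a fall of Kcna4.

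Of 26 calcium handling genes 10 rose (38.5%) and 9 fell (34.6%), shares close to the 30.9% and 31.7% of all genes. Their median of 0.02 became −0.22 with library totals alone, where 10 rose and 11 fell, and −0.09 with upper-quartile scaling. Without replicate 1 of P56 also 10 rose and 11 fell. The T-type calcium channels of the neonatal heart, which give way to the L-type in the adult ventricle, were among the falls. Cacna1h read 52.7, 50.8 and 47.1 at P1 and 0.408, 0.253 and 0.401 CPM at P56 (log2 change −7.14 ± 0.16, adjusted p = 1.6e-09). Cacna1g read 134, 145 and 125 at P1 and 28.2, 28.1 and 26.4 CPM at P56 (log2 change −2.29 ± 0.14, adjusted p = 5.29e-07), and unlike Cacna1h it had not yet fallen at P14 (130 CPM). Cacna1d, an L-type pore of atrial and nodal cells, fell as well (150, 133 and 133 at P1 and 18.5, 18.2 and 17.9 CPM at P56; log2 change −2.93 ± 0.08). On the side of the rises, Hrc, a calcium-binding protein of the sarcoplasmic reticulum, read 16, 16.2 and 17.4 at P1 and 62.9, 64.7 and 71.2 CPM at P56 (log2 change 2.00 ± 0.09, adjusted p = 7.28e-08). Pln, phospholamban, the brake on the calcium pump, read 699, 684 and 720 at P1 and 1420, 1330 and 1590 CPM at P56 (log2 change 1.04 ± 0.08, adjusted p = 2.73e-06). Cacna2d1, an auxiliary subunit of the L-type channel, read 820, 825 and 858 at P1 and 2250, 2130 and 2200 CPM at P56 (log2 change 1.40 ± 0.07, adjusted p = 1.11e-07). S100a1 and Camk2b rose by 1.15 and 1.09, while Camk2a changed by −1.09. Ryr2, the calcium release channel, read 18200, 18200 and 15900 at P1 and 13500, 17900 and 17100 CPM at P56, with overlapping ages (log2 change −0.11 ± 0.17, adjusted p = 0.611); it fell with library totals alone (−0.35) and with the marker score as a term (−0.32).

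Of 19 genes of T-tubules and the dyad, the junction of T-tubule and sarcoplasmic reticulum, 10 rose (52.6%, against 30.9% of all genes) and 5 fell (26.3%, against 31.7%). Trim72, a membrane repair protein, read 7.4, 6.25 and 6.34 at P1 and 70.9, 80.3 and 78.7 CPM at P56 (log2 change 3.52 ± 0.22, adjusted p = 5.26e-07). Sgca, alpha-sarcoglycan, read 33.7, 33.9 and 31.1 at P1 and 92.6, 118 and 101 CPM at P56 (log2 change 1.66 ± 0.16, adjusted p = 1.26e-05). Dysf, dysferlin, read 221, 223 and 196 at P1 and 461, 574 and 559 CPM at P56 (log2 change 1.32 ± 0.15, adjusted p = 4.03e-05). Among the 5 falls, Bves, a Popeye protein that binds cyclic AMP, read 388, 368 and 357 at P1 and 107, 115 and 113 CPM at P56 (log2 change −1.73 ± 0.07). The others were its relatives Popdc2 (−0.39) and Popdc3 (−0.22), Cav3 (−0.27) and Fkbp1b (−1.84 ± 0.65). Of these 5, only 2 to 4 fell in the fits that left out 1 library. The call of Popdc3 was lost in all 6 of them (adjusted p = 0.0599 to 0.143 without replicate 1, 2 or 3 of P1, or replicate 1, 2 or 3 of P56). That of Cav3 was lost in 3 (adjusted p = 0.0619 to 0.117 without replicate 1 of P1, or replicate 1 or 2 of P56). That of Fkbp1b was lost in 4 (adjusted p = 0.0512 to 0.0824 without replicate 1, 2 or 3 of P1, or replicate 2 of P56), and without replicate 1 of P56 its change was −2.56. Of 21 intercalated disc genes 11 rose (52.4%) and 5 fell (23.8%). Their median of 0.22 became −0.02 with library totals alone, where 8 rose and 9 fell. Dsc2, a desmosomal cadherin, read 46.7, 44.9 and 45 at P1 and 127, 128 and 130 CPM at P56 (log2 change 1.50 ± 0.06, adjusted p = 2.2e-08). Ank2, which anchors ion transporters, changed by 1.04. Among the 5 falls, Gja5, the connexin of the conduction system and atria, read 9.93, 8.98 and 8 at P1 and 2.06, 1.88 and 1.87 CPM at P56 (log2 change −2.21 ± 0.24). Gjc1, another connexin, read 93.3, 93.9 and 96.6 at P1 and 33.3, 23.9 and 25.8 CPM at P56 (log2 change −1.77 ± 0.11). The others were Pkp4 (−0.94), Ctnna3 (−0.56) and Ctnnb1 (−0.30).

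Adrenergic and cyclic nucleotide signalling held 14 rises (45.2%, against 30.9% of all genes) and 7 falls (22.6%, against 31.7%) among 31 genes (median 0.26). With library totals alone it held 8 rises and 11 falls (median 0.01). Adra1a, the alpha-1A adrenergic receptor that drives contractility and growth, read 2.5, 2.65 and 2.47 at P1 and 322, 369 and 359 CPM at P56 (log2 change 7.11 ± 0.17, adjusted p = 2.09e-09) and averaged 54.9 CPM at P14. Pde4d, which breaks down cyclic AMP near the calcium release channel, read 1580, 1590 and 1510 at P1 and 8700, 9150 and 8590 CPM at P56 (log2 change 2.50 ± 0.10, adjusted p = 3.7e-08). Pde7a and Pde4a rose by 2.19 and 1.89. Pde3b read 35.1, 27.8 and 32.8 at P1 and 5.07, 6.41 and 6.44 CPM at P56 (log2 change −2.42 ± 0.21, adjusted p = 5.2e-06), Pde5a changed by −1.73, and Adcy5, the main cardiac adenylyl cyclase together with Adcy6, read 403, 421 and 350 at P1 and 168, 200 and 176 CPM at P56 (log2 change −1.11 ± 0.15, adjusted p = 0.000123). The phosphodiesterase genes named thus changed in both directions.

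Fuel genes differed by pathway. The clearest group was that of ketone bodies and branched-chain amino acids, in which 17 of 21 genes rose (81.0%, against 30.9% of all genes), 2 fell and the median was 1.33; the count was 17 in every fit that left out 1 library. Bdh1 and Oxct1 carry out the first steps of ketone body use in mitochondria. Bdh1 read 0.142, 0.208 and 0.18 at P1 and 40.4, 62.1 and 55.4 CPM at P56 (log2 change 8.21 ± 0.23, adjusted p = 4.14e-09). At P14 it stood at 0.0352 CPM, below both other ages, and so rose after that age. Oxct1 read 138, 124 and 126 at P1 and 976, 916 and 920 CPM at P56 (log2 change 2.86 ± 0.09, adjusted p = 1.06e-08), with 358 CPM at P14. Mccc2, of leucine breakdown, read 28.7, 26.5 and 25.4 at P1 and 125, 121 and 125 CPM at P56 (log2 change 2.21 ± 0.09). Ivd, of the same pathway, read 12.8, 12.8 and 12.9 at P1 and 46.9, 50.1 and 46.5 CPM at P56 (log2 change 1.89 ± 0.10). Bckdha, a subunit of the branched-chain ketoacid dehydrogenase, rose by 2.16. Among the falls, Bckdk, the kinase that inhibits the ketoacid dehydrogenase, changed by −0.47 ± 0.10.

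Of 31 fatty acid genes 13 rose (41.9%) and 11 fell (35.5%), against 30.9% and 31.7% of all genes, with a median of −0.08. The counts were 10 and 14 with library totals alone (median −0.32), and without replicate 1 of P56 12 rose and 14 fell (median −0.17). Lpl, the lipase that frees fatty acids from lipoproteins, read 177, 182 and 190 at P1 and 939, 862 and 984 CPM at P56 (log2 change 2.34 ± 0.08, adjusted p = 1.39e-08). Cd36, the fatty acid transporter, read 728, 752 and 781 at P1 and 1570, 1230 and 1240 CPM at P56 (log2 change 0.84 ± 0.10, adjusted p = 4.02e-05). Ppara, the receptor that activates many genes of the pathway, read 146, 161 and 130 at P1 and 302, 436 and 424 CPM at P56 (log2 change 1.41 ± 0.16, adjusted p = 2.8e-05). Acot2, a mitochondrial thioesterase, read 9.37, 9.72 and 11.6 at P1 and 2.17, 1.38 and 1.02 CPM at P56 (log2 change −2.74 ± 0.23, adjusted p = 3.46e-06). Acaa2, the last enzyme of beta-oxidation, read 122, 123 and 122 at P1 and 103, 62 and 58.6 CPM at P56 (log2 change −0.71 ± 0.18, adjusted p = 0.00613). Pdk4, which blocks pyruvate entry when fatty acids are used, read 69.7, 76.1 and 80.2 at P1 and 52.8, 16.1 and 12.3 CPM at P56; replicate 1 of P56 stood apart, and the change of −1.48 ± 0.44 became −2.40 without it, while its call was lost without replicate 2 (adjusted p = 0.0534 without replicate 2 of P56). Of 29 genes of pyruvate entry and the TCA cycle 18 rose (62.1%) and only Sdhd fell (log2 change −0.27 ± 0.06), with a median of 0.28, and the count of rises was 12 with library totals alone. Mpc1, a subunit of the mitochondrial pyruvate carrier, read 51, 56.9 and 55.1 at P1 and 221, 269 and 269 CPM at P56 (log2 change 2.22 ± 0.11, adjusted p = 1.31e-07). Ogdh, a rate-controlling enzyme of the cycle, read 445, 457 and 458 at P1 and 1080, 1270 and 1340 CPM at P56 (log2 change 1.44 ± 0.11, adjusted p = 1.58e-06). Pdp2 and Got1 rose by 2.33 and 1.34.

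Of 30 glycolysis and lactate genes 13 rose (43.3%, against 30.9% of all genes) and 4 fell (13.3%, against 31.7%), with a median of 0.16. With library totals alone 10 rose and 9 fell (median −0.08). Pfkfb1, which sets the level of the glycolytic activator fructose 2,6-bisphosphate, read 19.6, 18.4 and 18.7 at P1 and 209, 192 and 218 CPM at P56 (log2 change 3.45 ± 0.08, adjusted p = 2.09e-09), and its P14 level of 17.7 CPM was close to that of P1. Slc2a4, the insulin-responsive glucose transporter, read 33.3, 33.8 and 33.1 at P1 and 163, 141 and 160 CPM at P56 (log2 change 2.21 ± 0.12, adjusted p = 1.79e-07). Hk2 read 66.2, 66.8 and 60 at P1 and 254, 268 and 256 CPM at P56 (log2 change 2.01 ± 0.17, adjusted p = 4.42e-06). The falls were Aldoc, Slc16a3 (log2 change −3.11 ± 0.34), Tpi1 (log2 change −0.82 ± 0.12) and Eno1 (log2 change −0.58 ± 0.11); Aldoc was left with a single count at P56, a ratio of 78.1 with a 95% counting interval of 13.7 to 3110. Among 53 nuclear genes of the respiratory chain 24 rose (45.3%) and 7 fell (13.2%). Their median of 0.18 became −0.07 with library totals alone, where 10 rose and 15 fell. Cox7a1, the muscle form of a cytochrome oxidase subunit, read 3.41, 3.26 and 3.94 at P1 and 9.35, 8.01 and 9.38 CPM at P56 (log2 change 1.33 ± 0.14, adjusted p = 1.75e-05). Ndufb3, of complex I, read 14.7, 15.5 and 16.1 at P1 and 31.7, 33.4 and 30.5 CPM at P56 (log2 change 1.04 ± 0.08, adjusted p = 2.19e-06). Atp5b, the catalytic subunit of the ATP synthase, read 186, 165 and 222 at P1 and 128, 114 and 120 CPM at P56 (log2 change −0.66 ± 0.13, adjusted p = 0.00143) and Cyc1 read 40.7, 38 and 46.4 at P1 and 23.7, 26.7 and 27.7 CPM at P56 (log2 change −0.68 ± 0.12, adjusted p = 0.000557). Ckmt2, the mitochondrial creatine kinase that exports high-energy phosphate, read 49, 46.6 and 46.2 at P1 and 694, 774 and 888 CPM at P56 (log2 change 4.05 ± 0.13, adjusted p = 1.06e-08). Mb, myoglobin, read 175, 159 and 180 at P1 and 356, 373 and 381 CPM at P56 (log2 change 1.11 ± 0.10, adjusted p = 8.69e-06).

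Transcripts encoded in the mitochondrial genome went the other way. All 7 such mRNAs in the table fell, against 31.7% of all genes, with a median of −0.84. Only 5 of the 7 calls were left with RLE size factors and in 5 of the 6 fits that left out a library (the exception was replicate 1 of P56). The largest fall was that of mt-Nd5, at 178, 153 and 156 at P1 and 76.9, 57.3 and 67.5 CPM at P56 (log2 change −1.27 ± 0.17, adjusted p = 9.84e-05), and mt-Cytb read 189, 156 and 172 at P1 and 95.1, 71.3 and 98.5 CPM at P56 (log2 change −0.97 ± 0.19, adjusted p = 0.00124). The 11 mitochondrially encoded genes took 1.09%, 0.988% and 1.25% of counts at P1 and 0.731%, 0.378% and 0.385% at P56. The ages did not overlap, with a ratio of 0.449 (exact permutation p = 0.1, the smallest possible, and 0.167 after adjustment over 10 shares). The 7 mRNAs alone summed to 959 to 1110 CPM at P1 and to 505 to 720 CPM at P56. Most of the share thus came from mitochondrial genes other than these mRNAs. The share of the nuclear-encoded respiratory chain list was 0.304% ± 0.0216 at P1 and 0.295% ± 0.00354 at P56 (SD, n = 3; exact permutation p = 1.0). Replicate 1 of P56 had the highest share of its age.

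**Figure D3:**
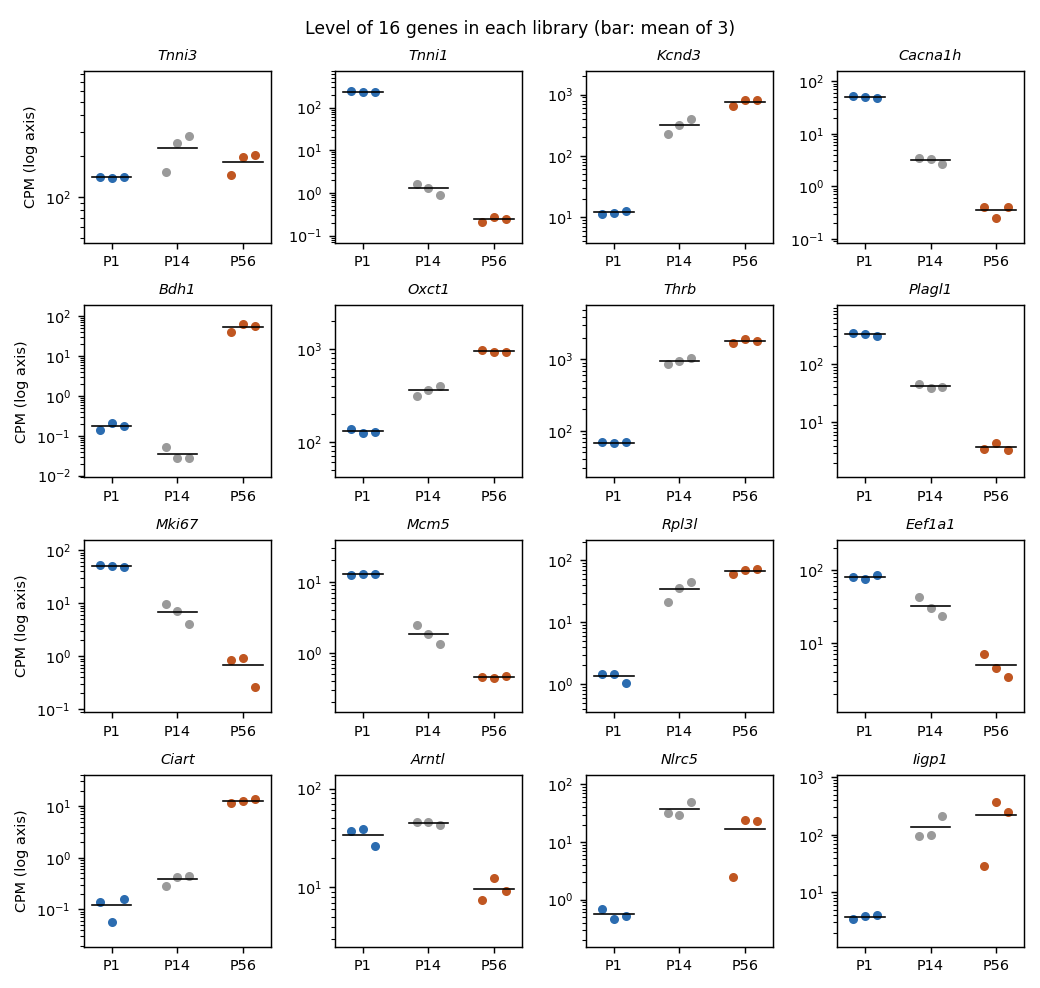
Level in CPM (vertical log axes, each panel with its own range) of 16 genes in each of 9 libraries, blue for P1, grey for P14 and orange for P56; black bars are means of 3 libraries. Bdh1 and Ciart stay low until P14 and are high at P56, Tnni1 and Cacna1h are low from P14 on, and Nlrc5 and Iigp1 have 1 low and 2 high P56 libraries.

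Cell division genes fell, with few exceptions. Of 35 mitosis and cytokinesis genes 33 fell (94.3%, against 31.7% of all genes), each by log2 1 or more, and the median was −4.75. Mki67, the proliferation marker, read 51.8, 49.6 and 49 at P1 and 0.861, 0.918 and 0.267 CPM at P56 (log2 change −6.20 ± 0.39, adjusted p = 6.1e-07). Top2a, which untangles chromosomes, read 22.8, 24.4 and 29.5 at P1 and 0.566, 0.574 and 0.0668 CPM at P56 (log2 change −5.99 ± 0.45, adjusted p = 1.73e-06). Bub1, a spindle checkpoint kinase, read 7, 7.94 and 8.92 at P1 and 0.0679, 0.115 and 0.0446 CPM at P56 (log2 change −6.67 ± 0.39, adjusted p = 3.43e-07). Ttk, another checkpoint kinase, and Kif2c, a kinesin that depolymerises microtubules, changed by −6.08 and −6.03. Aurkb, the kinase of the chromosomal passenger complex, read 2.53, 2.16 and 2.88 at P1 and 0.0679, 0.023 and 0 CPM at P56 (log2 change −6.26 ± 0.48, adjusted p = 2.02e-06) and changed by −7.49 without replicate 1 of P56. The exceptions were Cenpa and Cenpf. Cenpa, the histone of centromeres, read 22.7, 22 and 22.2 at P1 and 47.2, 53.1 and 57.1 CPM at P56 (log2 change 1.23 ± 0.13, adjusted p = 2.51e-05). Cenpf, a kinetochore protein, read 14.4, 13.1 and 15.7 at P1 and 16.2, 20.7 and 20.2 CPM at P56 (log2 change 0.40 ± 0.11, adjusted p = 0.0083) and lost its call with library totals alone.

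The promoters of 3 of these genes are shown because genes of the list fell together and because promoters of mitotic genes are known for CCAAT boxes, bound by NF-Y, and for the cell cycle homology region, bound by the complex that represses these genes in resting cells. They are the 3 largest falls of the list that have an entry in the RefSeq promoter table (build GRCm38.p6). Each sequence is the 250 bases before the annotated start, 5′ to 3′ on the gene's strand, with capitals marking CCAAT or TTTGAA on either strand. They lie at chr2:127831860-127832109 (minus strand) for Bub1, chr7:135716380-135716629 (minus strand) for Mki67 and chr9:83834439-83834688 (plus strand) for Ttk.
Bub1: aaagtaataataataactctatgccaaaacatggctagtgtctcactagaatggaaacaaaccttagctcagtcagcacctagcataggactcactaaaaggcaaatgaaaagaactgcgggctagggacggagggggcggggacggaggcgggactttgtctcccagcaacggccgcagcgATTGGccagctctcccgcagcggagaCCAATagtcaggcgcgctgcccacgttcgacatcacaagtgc
Mki67: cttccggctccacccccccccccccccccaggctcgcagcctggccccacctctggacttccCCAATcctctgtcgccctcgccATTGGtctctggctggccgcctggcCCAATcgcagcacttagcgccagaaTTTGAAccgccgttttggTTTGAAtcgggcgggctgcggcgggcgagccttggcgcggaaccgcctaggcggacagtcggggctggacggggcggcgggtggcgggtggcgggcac
Ttk: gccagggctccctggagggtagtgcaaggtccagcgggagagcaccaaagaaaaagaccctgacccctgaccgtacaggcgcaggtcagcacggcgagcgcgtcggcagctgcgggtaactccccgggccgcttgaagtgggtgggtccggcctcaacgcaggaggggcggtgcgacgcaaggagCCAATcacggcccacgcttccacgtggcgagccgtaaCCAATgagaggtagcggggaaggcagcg
Bub1 and Ttk have a pair of CCAAT boxes each within the last 70 bases before the start, and Mki67 has 3 CCAAT boxes followed by 2 TTTGAA words. Of 35 genes of the list 30 had a promoter in the table; CCAAT occurred in 21 of them (70.0%), TTTGAA in 10 (33.3%) and an E2F word (TTTCGCGC or TTTGGCGC) in 2 (6.67%). Among all 27025 promoters of that table the shares were 34.5%, 16.3% and 0.673%. Among the 10979 promoters of genes tested they were 35.7%, 10.5% and 1.24%. CCAAT occurred in 37.3% of promoters of genes that fell by log2 1 or more and in 36.4% of those that rose by as much. For the DNA replication list 32 of 40 genes had a promoter, with CCAAT in 20 (62.5%), TTTGAA in 5 (15.6%) and an E2F word in 5 (15.6%). CCAAT was also found in 10 of 15 promoters of the clock list (66.7%), most of whose genes rose. It occurred in 56.2% for the ketone and branched-chain amino acid list and 60.0% for the pyruvate and TCA list, where most genes rose too. For the fatty acid list the share was 38.5%. The table includes predicted and noncoding genes, so it is a broad reference, and a matching word is not shown to be bound.

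DNA replication genes fell to a smaller degree: 39 of 40 (97.5%, against 31.7% of all genes) with a median of −2.17. E2f1, which activates genes of S phase, read 3.45, 3.49 and 3.69 at P1 and 0, 0.0689 and 0.0446 CPM at P56 (log2 change −6.45 ± 0.50, adjusted p = 2.21e-06), and changed by −7.14 without replicate 2 of P56. Rrm2, the ribonucleotide reductase subunit made in S phase, read 4.84, 4.32 and 6.05 at P1 and 0.181, 0.115 and 0.111 CPM at P56 (log2 change −5.20 ± 0.39, adjusted p = 1.81e-06). Mcm5, of the replicative helicase, read 12.3, 13 and 12.9 at P1 and 0.453, 0.436 and 0.468 CPM at P56 (log2 change −4.81 ± 0.21, adjusted p = 6.4e-08). The exception was Gmnn, geminin, which blocks the licensing of origins; it read 6.13, 6.33 and 6.11 at P1 and 13.8, 11.1 and 11.7 CPM at P56 (log2 change 0.98 ± 0.10, adjusted p = 2.18e-05). Replication-dependent histones, whose mRNAs have no poly(A) tail, fell in 27 of 34 genes (79.4%) with a median of −2.30, and the rises were Hist1h2bc (0.86) and Hist1h2be (0.69). The histone genes are near-identical copies, and reads that match several cannot be assigned to 1. Together the mitosis and replication lists took 0.0933%, 0.0966% and 0.106% of counts at P1 and 0.0241%, 0.0223% and 0.0223% at P56 (ratio 0.232; exact permutation p = 0.1, the smallest possible). The share at P14, 0.0246% to 0.0352%, lay between them. Of 24 DNA repair genes 16 fell (66.7%), among them Exo1 (−5.81, and −6.44 without replicate 2 of P56) and Brca1 (11.2, 13.2 and 12.5 at P1 and 0.476, 0.413 and 0.379 CPM at P56, log2 change −4.86). The rises (12.5%, against 30.9% of all genes) were Xrcc5 (0.66), Mdm2 (0.34) and Xrcc6 (0.32), of which Mdm2 and Xrcc6 were not called with library totals alone.

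Inhibitors of the cell cycle did not rise as a group. Of 18 genes 11 fell (61.1%, against 31.7% of all genes) and 6 rose (33.3%, against 30.9%). Their median was −0.56, and 3 rose with library totals alone. Cdkn1a, or p21, read 4.35, 3.87 and 4.09 at P1 and 1.29, 1.88 and 1.09 CPM at P56 (log2 change −1.53 ± 0.19, adjusted p = 5.42e-05), and averaged 17.1 CPM at P14, above both other ages. Rbl1, or p107, which accompanies proliferation, read 21.5, 23.2 and 24.2 at P1 and 0.951, 0.62 and 0.557 CPM at P56 (log2 change −5.01 ± 0.29, adjusted p = 3.31e-07). Rbl2, or p130, the pocket protein of resting cells, read 24, 26.5 and 23.9 at P1 and 40.9, 39.7 and 37.7 CPM at P56 (log2 change 0.67 ± 0.08, adjusted p = 4.36e-05). Cdkn2c changed by −1.66 and Btg1 by −2.19. Ccng1, cyclin G1, which p53 induces, read 27.4, 29 and 31.5 at P1 and 72.2, 65.4 and 71.5 CPM at P56 (log2 change 1.25 ± 0.07, adjusted p = 3.75e-07). Meis1, a factor that restrains cardiomyocyte division, read 496, 495 and 464 at P1 and 341, 323 and 348 CPM at P56 (log2 change −0.52 ± 0.05, adjusted p = 1.8e-05). Of 27 genes of G1 and growth signalling 18 fell (66.7%), 16 of them by log2 1 or more, and 22.2% rose. Tead2, a partner of YAP, read 13.7, 13.6 and 13.7 at P1 and 0.34, 0.23 and 0.0668 CPM at P56 (log2 change −6.00 ± 0.37, adjusted p = 5.15e-07), Mycn changed by −3.54, and Hmga2 by −3.53. Of the 27, 6 rose, including Yap1 (185, 198 and 190 at P1 and 321, 315 and 333 CPM at P56; 0.76), its paralog Wwtr1 (161, 162 and 161 at P1 and 272, 270 and 265 CPM at P56; 0.73) and Cyr61, a target of both (6.67, 5.99 and 8.74 at P1 and 53.2, 43.6 and 48.4 CPM at P56; 2.76).

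Imprinted genes that govern fetal growth mostly fell: 18 of 21 fell (85.7%, against 31.7% of all genes), 17 by log2 1 or more, and 1 rose. The median was −2.28 (the same with Dlk1 at its bound). Igf2, the fetal growth factor, read 72.6, 60.3 and 80.2 at P1 and 1.11, 0.689 and 0.245 CPM at P56 (log2 change −6.70 ± 0.45, adjusted p = 8.43e-07). H19, the noncoding RNA beside it, read 33.2, 23.2 and 41.5 at P1 and 0.249, 0.344 and 0.0668 CPM at P56 (log2 change −7.20 ± 0.52, adjusted p = 1.43e-06). Plagl1, a zinc finger factor of the network, read 333, 319 and 300 at P1 and 3.58, 4.43 and 3.45 CPM at P56 (log2 change −6.38 ± 0.11, adjusted p = 3.56e-10). Mest read 34.8, 31.9 and 43.3 at P1 and 0.793, 0.298 and 0.156 CPM at P56 (log2 change −6.46 ± 0.47, adjusted p = 1.51e-06), and changed by −7.32 without replicate 1 of P56. Dlk1, an inhibitor of Notch signalling, read 1.63, 1.04 and 2.4 CPM at P1 and had no count at P56; against a floor of 3 counts over the 3 libraries it was at least 75.0-fold lower. The rise was that of Impact (27, 25.9 and 28.5 at P1 and 58.8, 58 and 62.6 CPM at P56; log2 change 1.14 ± 0.06, adjusted p = 2.85e-07). Fibroblasts express several of these genes as well: the fibroblast markers summed to 207 to 373 CPM at P1 and 75.3 to 161 at P56, and their part in these falls was not tested. With the marker score as a term 18 of 21 fell, with a median of −2.19. The score averages markers of several cell types, so that fit does not isolate fibroblasts.

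Nuclear receptors and factors of maturation rose in 15 of 28 cases (53.6%, against 30.9% of all genes) and fell in 5 (17.9%, against 31.7%). Of the rises 11 were of log2 1 or more, and 12.7% of all genes rose by as much. The median was 0.40. Scaled by library totals alone, 14 rose and 8 fell, with a median of 0.16. Thrb, a receptor for thyroid hormone, read 69.9, 66.4 and 68.8 at P1 and 1700, 1920 and 1830 CPM at P56 (log2 change 4.73 ± 0.10, adjusted p = 8.38e-10), with 959 CPM at P14. Thra, the other receptor gene, read 94, 93.1 and 81.9 at P1 and 40.1, 39.8 and 37.9 CPM at P56 (log2 change −1.19 ± 0.09, adjusted p = 2.15e-06); its 3′ end overlaps Nr1d1 on the opposite strand. The 2 thyroid hormone receptor genes thus changed in opposite directions. Rxrg, a heterodimer partner, read 3.07, 2.29 and 2.86 at P1 and 53.5, 55.5 and 56.8 CPM at P56 (log2 change 4.33 ± 0.18, adjusted p = 3.79e-08). Pparg, better known from fat cells, read 2.66, 2.31 and 2.14 at P1 and 91.7, 90.4 and 95.4 CPM at P56 (log2 change 5.28 ± 0.22, adjusted p = 4.73e-08). Klf9, a target of thyroid hormone and glucocorticoids, read 25.5, 25.9 and 21.5 at P1 and 115, 97.9 and 98.7 CPM at P56 (log2 change 2.09 ± 0.09, adjusted p = 5.7e-08). Nr3c2, the mineralocorticoid receptor, read 573, 559 and 529 at P1 and 1340, 1290 and 1480 CPM at P56 (1.31). Nr3c1, the glucocorticoid receptor, read 177, 189 and 189 at P1 and 338, 317 and 357 CPM at P56 (0.87). Ppargc1a, the coactivator of mitochondrial biogenesis, read 779, 805 and 771 at P1 and 819, 778 and 906 CPM at P56 and did not pass (log2 change 0.09 ± 0.08, adjusted p = 0.344), and neither did Esrra (log2 change −0.12 ± 0.18, adjusted p = 0.587). Among the falls, Dio2, which makes active thyroid hormone, read 1.34, 1.76 and 1.82 at P1 and 0.34, 0.184 and 0.423 CPM at P56 (−2.36). The others besides Thra were Rara (−1.18), Rxra (−0.36) and Nrf1 (−0.35). The call of Rxra was lost in 4 fits that left out a library (adjusted p = 0.0781 to 0.134 without replicate 1 or 2 of P1, or replicate 1 or 3 of P56).

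Clock genes rose in 12 of 18 cases (66.7%, against 30.9% of all genes) and fell in 4 (22.2%, against 31.7%), with a median of 0.84. The core loop of the clock consists of activators (Arntl, Clock and Npas2) that drive their own repressors and output genes through E-boxes. The 3 activators were lower at P56. Ciart, a repressor of the activators, read 0.142, 0.0569 and 0.162 at P1 and 11.3, 12.5 and 13.6 CPM at P56 (log2 change 6.64 ± 0.25, adjusted p = 2.58e-08), with 0.385 CPM at P14. Dbp, an output factor, read 8.7, 8.42 and 9.4 at P1 and 47.4, 42.2 and 55.5 CPM at P56 (log2 change 2.45 ± 0.13, adjusted p = 1.63e-07). Tef, a related factor, read 37.4, 41 and 42.7 at P1 and 244, 259 and 281 CPM at P56 (log2 change 2.70 ± 0.11, adjusted p = 4.74e-08). Nr1d1, or Rev-erb alpha, which represses Arntl, read 7.6, 7.22 and 7.42 at P1 and 28.6, 21.1 and 23.9 CPM at P56 (log2 change 1.73 ± 0.17, adjusted p = 1.46e-05) and overlaps Thra. Arntl, or Bmal1, read 37, 39.2 and 26.1 at P1 and 7.54, 12.4 and 9.2 CPM at P56 (log2 change −1.81 ± 0.19, adjusted p = 1.95e-05), Npas2 read 197, 202 and 169 at P1 and 73, 71.2 and 75.4 CPM at P56 (log2 change −1.37 ± 0.08, adjusted p = 2.68e-07). Clock read 161, 161 and 157 at P1 and 72.8, 76.7 and 80.7 CPM at P56 (log2 change −1.06 ± 0.06, adjusted p = 3.45e-07); the fourth fall was Nfil3 (−0.96). The hour at which hearts were taken is not in the labels, so hour and age cannot be told apart for these genes. The promoter of Ciart, the largest rise, is shown at chr3:95882229-95882478 (minus strand) (250 bases before its start, build GRCm38.p6) with capitals marking the E-box CACGTG, which occurs 3 times.
Ciart: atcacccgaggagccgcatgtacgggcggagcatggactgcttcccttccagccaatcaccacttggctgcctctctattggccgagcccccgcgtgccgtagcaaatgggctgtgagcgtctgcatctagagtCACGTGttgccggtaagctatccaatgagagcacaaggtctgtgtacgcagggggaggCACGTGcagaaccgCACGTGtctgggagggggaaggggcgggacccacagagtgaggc
CACGTG was found in 5 of 15 clock promoters in the table (33.3%), in 6.05% of all promoters there and in 8.16% of those of genes tested.

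Cardiac transcription factors more often fell than rose: of 24, 13 fell (54.2%, against 31.7% of all genes) and 4 rose (16.7%, against 30.9%). Their median was −0.41, or −0.65 with library totals alone. Hey2, a Notch target that keeps ventricular identity in the embryo, read 115, 114 and 107 at P1 and 16.1, 12.7 and 12.3 CPM at P56 (log2 change −3.03 ± 0.14, adjusted p = 7.77e-08). Tbx20 read 793, 713 and 776 at P1 and 283, 300 and 319 CPM at P56 (log2 change −1.34 ± 0.08, adjusted p = 3.89e-07), and Irx4 and Nkx2-5 changed by −1.09 and −0.77. The rises were Nfatc1 (17.1, 16.2 and 16.5 at P1 and 54.3, 60.3 and 56.3 CPM at P56; 1.78), Zbtb20 (2840, 2900 and 2820 at P1 and 6440, 6040 and 6560 CPM at P56; 1.15), Mef2c (0.90) and Tbx5 (0.57).

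Writers and organisers of chromatin mostly fell by small amounts. Among 16 DNA methylation genes 8 fell and 3 rose, and 11 fell and 1 rose with library totals alone. Dnmt1, which copies methylation at replication, read 37.1, 37.9 and 38.1 at P1 and 8.04, 8.27 and 7.44 CPM at P56 (log2 change −2.25 ± 0.10, adjusted p = 5.78e-08). Its partner Uhrf1 read 10.1, 11 and 11.1 at P1 and 0.702, 1.33 and 0.958 CPM at P56 (log2 change −3.43 ± 0.20, adjusted p = 3.89e-07). Tet1, which oxidises the mark, read 85.9, 87.6 and 83 at P1 and 39.1, 37.3 and 42.4 CPM at P56 (log2 change −1.11 ± 0.06, adjusted p = 2.68e-07). Among the rises were Zbtb38 (1.13) and Dnmt3b (0.45). Dnmt3b was not called with library totals alone and also lost its call in other fits (adjusted p = 0.0546 to 0.0603 without replicate 1 of P1, or replicate 3 of P56). Without replicate 1 of P56, 5 of the 16 rose. Of 23 Polycomb genes 12 fell (52.2%) and 2 rose (8.7%), with a median of −0.50. Ezh2, the methyltransferase of dividing cells, read 114, 129 and 125 at P1 and 52.5, 53.8 and 52.8 CPM at P56 (log2 change −1.21 ± 0.08, adjusted p = 5.27e-07), and Ezh1 gained on it within each library by 1.35 on the log2 scale. Pcgf2 read 24.5, 26.7 and 23.8 at P1 and 3.13, 4.25 and 3.72 CPM at P56 (log2 change −2.76 ± 0.17, adjusted p = 5.27e-07), and the rises were Cbx7 (3.32, 3.45 and 2.97 at P1 and 7.61, 6.02 and 5.68 CPM at P56; 0.99) and Phf1 (0.62). Chromatin modifiers and remodellers fell in 21 of 42 cases and rose in 7 (32 and 3 with library totals alone). Chd3 read 15.9, 15.8 and 15.6 at P1 and 1.68, 1.7 and 1.34 CPM at P56 (log2 change −3.33 ± 0.15, adjusted p = 6.17e-08). Hells, which serves DNA methylation, read 24.9, 29.4 and 29.9 at P1 and 6.91, 7.26 and 6.13 CPM at P56 (log2 change −2.05 ± 0.14, adjusted p = 7.87e-07). Smarca2, a motor of the SWI/SNF complex, read 74.2, 72.4 and 67.6 at P1 and 168, 170 and 177 CPM at P56 (log2 change 1.27 ± 0.09, adjusted p = 1.71e-06) and Hdac4 rose by 1.26. Histone variants and high mobility group genes fell in 15 of 18 cases (83.3%, median −0.93), led by Hmga2, Hmgb2 (−2.19) and H2afx (−2.04), and only Cenpa rose. The nuclear envelope and centrosome list held 13 falls of 24 (54.2%) and 8 rises (33.3%, close to the 30.9% of all genes), or 14 and 5 with library totals alone. Lmnb1 read 60.6, 63.3 and 61.7 at P1 and 13.1, 13.5 and 11.7 CPM at P56 (log2 change −2.28 ± 0.07, adjusted p = 1.05e-08) and Lmna 17.6, 19 and 18.4 at P1 and 27, 32.9 and 31.2 CPM at P56 (log2 change 0.73 ± 0.10, adjusted p = 0.000127). Pcnt, pericentrin, which moves from the centrosome to the nuclear envelope in maturing cardiomyocytes, read 99.6, 102 and 89.7 at P1 and 233, 280 and 256 CPM at P56 (log2 change 1.40 ± 0.13, adjusted p = 9.47e-06).

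**Figure D4:**
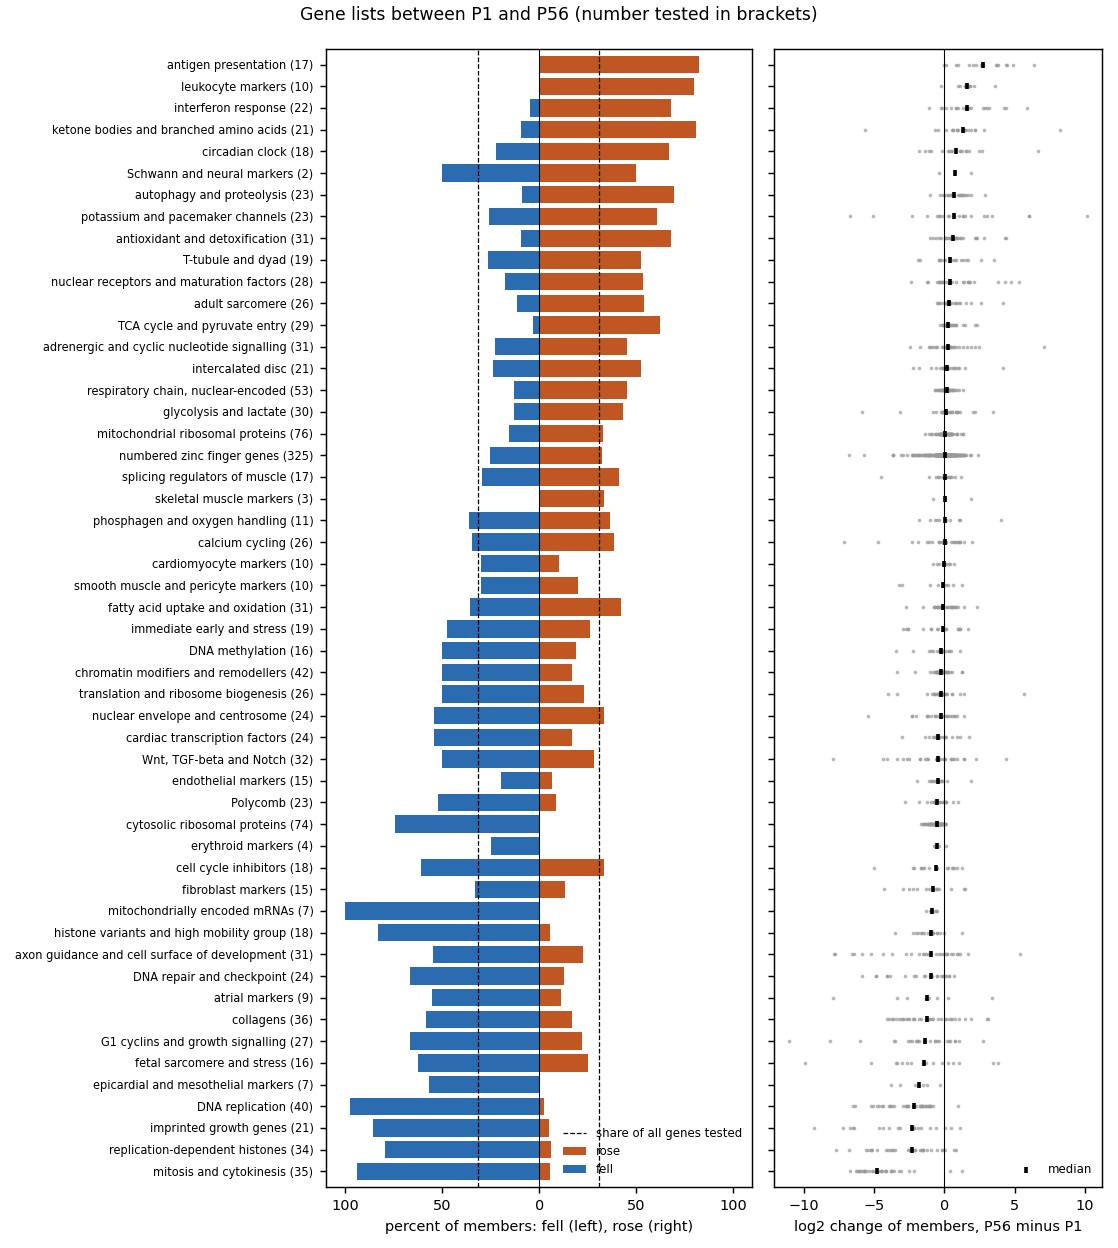
Left, percent of the tested members of 52 gene lists that rose (orange, to the right) or fell (blue, to the left) between P1 and P56, with dashed lines at the shares of all genes (30.9% rose, 31.7% fell); right, log2 change of every member (grey) and the list median (black bar). Lists are ordered by their median, from 2.75 for antigen presentation to −4.75 for mitosis and cytokinesis; 10 of the medians plotted as positive turn negative with library totals alone, and 7 of them also with upper-quartile scaling.

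Transcripts of ribosomal proteins and of translation factors changed in level and, for some pairs, in the balance of their forms. Of 74 cytosolic ribosomal protein genes 55 fell (74.3%) and none rose under edgeR's quasi-likelihood test, with a median of −0.54; at an unadjusted p under 0.05 the count of rises was 0, and with DESeq2 it was 0. Rplp0, of the ribosomal stalk, read 18.2, 16.8 and 19.6 at P1 and 6.75, 4.94 and 5.75 CPM at P56 (log2 change −1.65 ± 0.17, adjusted p = 1.99e-05). Rps4x read 13.9, 11.8 and 14.1 at P1 and 5.66, 5.1 and 4.95 CPM at P56 (log2 change −1.34 ± 0.19, adjusted p = 0.000144). Many processed pseudogenes resemble these genes, so single values are uncertain. Their share of counts was 0.0582% ± 0.00487 at P1 and 0.0315% ± 0.00339 at P56 (SD, n = 3), without overlap. Of 76 mitochondrial ribosomal protein genes 25 rose (32.9%, against 30.9% of all genes) and 12 fell (15.8%, against 31.7%). Their median was 0.07 (−0.04 with upper-quartile scaling). Scaled by library totals alone, 10 rose and 26 fell, with a median of −0.17. Rpl3l, the muscle form of ribosomal protein L3, read 1.47, 1.46 and 1.06 at P1 and 60.8, 69.4 and 70.8 CPM at P56 (log2 change 5.65 ± 0.28, adjusted p = 1.34e-07). Rpl3 read 14.7, 12.7 and 12.8 at P1 and 8.06, 6.25 and 7.51 CPM at P56 (log2 change −0.88 ± 0.11, adjusted p = 9.01e-05); the log2 ratio within a library went from −3.31, −3.12 and −3.58 to 2.91, 3.47 and 3.23. Eef1a1, the elongation factor of most tissues, read 80.1, 74.7 and 86.9 at P1 and 6.98, 4.5 and 3.34 CPM at P56 (log2 change −4.03 ± 0.28, adjusted p = 1.1e-06). Eef1a2, the muscle and neuron form, read 35.7, 33.7 and 37.1 at P1 and 88.9, 93.1 and 94.5 CPM at P56 (log2 change 1.38 ± 0.14, adjusted p = 1.84e-05). Both members of these 2 pairs changed. Eef2 read 105, 91.4 and 109 at P1 and 45.6, 42.5 and 43.2 CPM at P56 (log2 change −1.21 ± 0.10, adjusted p = 3.19e-06) and its inhibitor kinase Eef2k read 56.9, 62.6 and 52.4 at P1 and 124, 124 and 123 CPM at P56 (log2 change 1.11 ± 0.09, adjusted p = 3.49e-06). Of 17 splicing regulators of muscle 7 rose (41.2%, against 30.9% of all genes) and 5 fell (29.4%, against 31.7%), with a median of 0.04. With upper-quartile scaling 5 rose and 6 fell (median −0.07), as they did without replicate 3 of P56. With library totals alone 3 rose and 10 fell (median −0.20). Mbnl1, which promotes adult splice forms, read 482, 499 and 505 at P1 and 1160, 1050 and 1100 CPM at P56 (log2 change 1.16 ± 0.06, adjusted p = 2.16e-07). Mbnl3 read 13.4, 14.3 and 15.2 at P1 and 0.815, 0.551 and 0.535 CPM at P56 (log2 change −4.49 ± 0.21, adjusted p = 7.47e-08) and Ptbp1, which represses muscle exons, read 26.9, 26.8 and 28.7 at P1 and 13.2, 13.8 and 11.4 CPM at P56 (log2 change −1.10 ± 0.09, adjusted p = 3.81e-06). The other falls were Srsf3 (−0.56), Hnrnpa1 (−0.44) and Ptbp2 (−0.40).

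Genes of antioxidant defence and of autophagy more often rose than fell. Of 31 antioxidant and detoxification genes 21 rose (67.7%, against 30.9% of all genes) and 3 fell, with a median of 0.63 (0.38 with library totals alone). Aox1, aldehyde oxidase, read 15.1, 13.7 and 14.3 at P1 and 278, 300 and 344 CPM at P56 (log2 change 4.42 ± 0.14, adjusted p = 9.5e-09). Xdh, xanthine dehydrogenase, read 0.474, 0.379 and 0.432 at P1 and 11.5, 9.12 and 5.64 CPM at P56 (log2 change 4.34 ± 0.54, adjusted p = 6.28e-05). The glutathione transferases Gstk1 and Gstm1 rose by 2.80 and 2.35. The falls were Prdx2 (−0.77), Gpx1 (−1.04; adjusted p = 0.0523 without replicate 2 of P56) and Gpx3 (−0.59; adjusted p = 0.0504 to 0.0862 without replicate 3 of P1, or replicate 1 or 2 of P56), so that only Prdx2 fell without replicate 2 of P56. Of 23 autophagy and proteolysis genes 16 rose (69.6%) and 2 fell (Ubb, −1.02, and Becn1, −0.33), with a median of 0.71 (0.46 with library totals alone). Hspb8, a small heat shock protein of assisted autophagy, read 14.5, 14.6 and 18 at P1 and 116, 121 and 121 CPM at P56 (log2 change 2.93 ± 0.14, adjusted p = 1.25e-07). Its partner Bag3 read 84, 91 and 114 at P1 and 210, 283 and 268 CPM at P56 (log2 change 1.40 ± 0.14, adjusted p = 1.63e-05). Fbxo32, or atrogin-1, a muscle ubiquitin ligase, read 76.4, 93.4 and 75.5 at P1 and 304, 293 and 302 CPM at P56 (log2 change 1.87 ± 0.13, adjusted p = 1.06e-06).

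Genes of antigen presentation and the interferon response were higher at P56, with a wide spread between its libraries. Of 17 antigen presentation genes 14 rose (82.4%, against 30.9% of all genes), none fell, and the median was 2.75. Of 22 interferon genes 15 rose (68.2%), Ifit2 fell (log2 change −1.08 ± 0.12), and the median was 1.60. Many members were low. At least 1 CPM in 3 of the 6 libraries was reached by 9 antigen presentation genes, of which 7 rose (median 2.06), and by 12 interferon genes, of which 8 rose (median 1.4). With an unadjusted p under 0.05, 0 of the 17 antigen presentation genes fell, and 0 fell with DESeq2. Nlrc5, the activator of MHC class I genes, read 0.696, 0.455 and 0.522 at P1 and 2.51, 23.9 and 23.1 CPM at P56 (log2 change 4.87 ± 0.77, adjusted p = 0.000347; 4.08 with the marker score as a term), and averaged 36.8 CPM at P14. Tap1, the peptide transporter, read 0.601, 0.455 and 0.63 at P1 and 1.79, 11.9 and 8.8 CPM at P56 (log2 change 3.73 ± 0.64, adjusted p = 0.000563). B2m, the light chain of class I, read 2.09, 2.08 and 3.26 at P1 and 4.19, 12.7 and 8.67 CPM at P56 (log2 change 1.78 ± 0.36, adjusted p = 0.00166). H2-K1 and H2-D1, class I heavy chains with near-identical relatives, rose by 2.29 (1.55 without replicate 2 of P56) and 2.07. Iigp1, an interferon-induced GTPase, read 3.4, 3.81 and 3.98 at P1 and 28.4, 371 and 252 CPM at P56 (log2 change 5.87 ± 0.85, adjusted p = 0.000189); without replicate 2 of P56 its change was 5.23, and with the marker score as a term 4.90. For Nlrc5, Tap1, B2m and Iigp1, replicate 1 of P56 was the lowest of its age and above the 3 P1 libraries. The interferon list summed to 47.1 to 48.1 CPM at P1 and to 79.2, 499 and 354 CPM in the 3 libraries of P56.

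Leukocyte markers moved in the same direction. Of 10 such markers 8 rose (80.0%, against 30.9% of all genes), none fell and the median was 1.63. Their summed level was low, 5.12 to 7.3 CPM at P1 and 10.6 to 23.1 CPM at P56. None was at 0 counts in all libraries of an age. The count of rises was 4 with library totals alone, 4 without replicate 1 of P56, which had the highest sum, 4 without replicate 2 of P1 and 5 without replicate 1 of P1. With an unadjusted p under 0.05, 0 of the 10 fell, and 0 fell with DESeq2. Ptprc, or CD45, read 0.964, 0.682 and 1.51 at P1 and 3.01, 2 and 1.18 CPM at P56 and did not pass (log2 change 0.97 ± 0.47, adjusted p = 0.101). It was called in the fit of the 6 libraries alone (adjusted p = 0.042) and with the marker score as a term (1.52, adjusted p = 3.85e-05). Adgre1, of macrophages, read 0.664, 0.493 and 0.919 at P1 and 2.85, 1.72 and 1.27 CPM at P56 (log2 change 1.49 ± 0.47, adjusted p = 0.0189), a call that was not stable (adjusted p = 0.0575 to 0.0782 without replicate 1 or 2 of P1, or replicate 1 of P56). Across the P56 libraries the orders differed: leukocyte markers were highest in replicate 1, in which the interferon and antigen presentation sums were lowest. With the marker score as a term 16 of 22 interferon genes and 14 of 17 antigen presentation genes rose. The leukocyte markers rose in that fit as well, 9 of 10 with a median of 2.11, so the score does not remove their change. The part of leukocytes in the 2 immune lists was not tested.

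**Figure D5:**
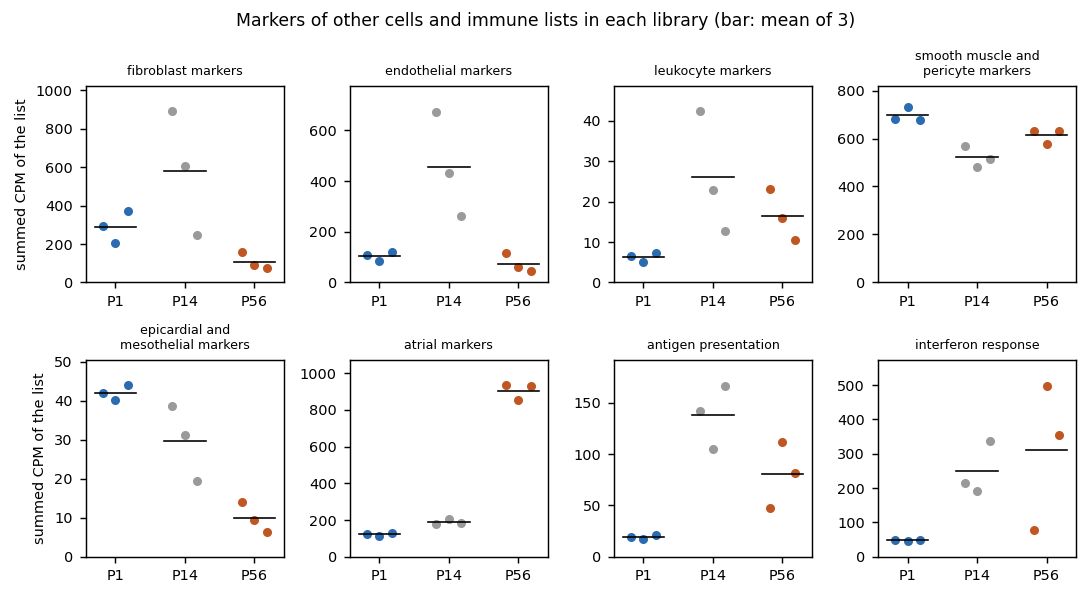
Summed CPM (vertical axes from 0) of 6 marker lists and 2 immune lists in each of 9 libraries, blue for P1, grey for P14 and orange for P56, with bars at the means of 3 libraries. The atrial sum is 112 to 132 at P1 and 851 to 933 at P56, mostly through Kcnj3 (means 85.6 and 877). Of the 9 atrial markers 5 fell (55.6%, against 31.7% of all genes). Fibroblast sums are 207 to 373 at P1 and 75.3 to 161 at P56, and endothelial sums, highest at P14, are 86.4 to 122 and 45.7 to 116; the interferon sum is near 48 in each P1 library and 79.2 to 499 at P56.

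Markers of fibroblasts, endothelium and epicardium fell more often than they rose, in contrast to those of leukocytes. Falls were 33.3% of fibroblast, 20.0% of endothelial and 57.1% of epicardial markers, against 31.7% of all genes. The fibroblast share was thus close to that of all genes and the endothelial share below it. Rises were 13.3%, 6.67% and 0.0%, against 30.9% of all genes. Of 15 fibroblast markers 5 fell (Postn, Col1a1, Col3a1, Col1a2 and Tcf21) and 2 rose (Fbln1, 1.40, and Pi16, 1.44, adjusted p = 0.05 to 0.0795 without replicate 1 or 2 of P1, or replicate 1 of P56), with a median of −0.83. Postn, a matrix protein of young fibroblasts, read 45.2, 30.7 and 56 at P1 and 2.67, 2.55 and 1.54 CPM at P56 (log2 change −4.29 ± 0.46, adjusted p = 2.1e-05). Col1a1 read 55.1, 34.6 and 75.2 at P1 and 11.4, 6.52 and 3.23 CPM at P56 (log2 change −2.96 ± 0.57, adjusted p = 0.00128; −2.27 with the marker score as a term). Pdgfra, a marker of fibroblast identity, read 7.35, 4.8 and 8.27 at P1 and 7.18, 3.97 and 3.27 CPM at P56 and did not pass (log2 change −0.50 ± 0.47, adjusted p = 0.373). Of 15 endothelial markers 3 fell (Cldn5, Cdh5 and Egfl7) and 1 rose (Ly6c1, 1.93), while 8 fell without replicate 1 of P56 and 1 fell without replicate 1 or 3 of P1 or replicate 2 or 3 of P56. Pecam1, a general endothelial marker, read 10.4, 9.57 and 12.2 at P1 and 10.6, 5.42 and 4.03 CPM at P56 and did not pass (log2 change −0.69 ± 0.37, adjusted p = 0.131). It was called without replicate 1 of P56 (−1.18, adjusted p = 0.0143), with a replicate block (−0.81, adjusted p = 0.0288) and with the marker score as a term (−0.27, adjusted p = 0.0263). Of 7 epicardial markers 4 fell (Msln, Aldh1a2, Tbx18 and Wt1), with summed levels of 40.1 to 44 CPM at P1 and 6.3 to 14 at P56. Of 36 collagen genes 21 fell (58.3%) and 6 rose (16.7%), with a median of −1.25. Among them Col4a6, of basement membranes, read 32.5, 29.7 and 28.7 at P1 and 2.54, 2.16 and 2.76 CPM at P56 (log2 change −3.61 ± 0.22, adjusted p = 5.11e-07) and Col11a1 changed by −4.07, while Col8a1 rose by 3.13 and by 2.52 without replicate 1 of P56. Col1a1, Col3a1 and Col1a2 belong to both the collagen and the fibroblast list, so falls of these lists are not independent. The part of fibroblasts in the collagen falls was not tested. With the marker score as a term 24 of 36 collagens fell and 8 rose, and the median went from −1.25 to −0.71. The score holds Col1a1, Col3a1 and Col1a2 itself, so this fit cannot separate collagens from fibroblast markers. Among 9 atrial markers 5 fell (55.6%), among them Bmp10, Myl7 (−3.37), Dkk3 (−2.68) and Myl4 (−1.30). Bmp10 had 113 counts at P1 and none at P56 (at least 29.1-fold lower against a floor of 3 counts over the 3 libraries). The rise was Kcnj3.

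Genes of axon guidance and of the cell surface in development held 17 falls (54.8%, against 31.7% of all genes) and 7 rises (22.6%, against 30.9%) among 31 (median −0.94). Ncam1, a neural cell adhesion molecule that immature muscle also carries, read 565, 561 and 554 at P1 and 12.1, 18 and 15.6 CPM at P56 (log2 change −5.20 ± 0.13, adjusted p = 2.99e-09). Robo1, a receptor for Slit proteins, read 67.2, 61.1 and 69.1 at P1 and 4.73, 2.78 and 2.25 CPM at P56 (log2 change −4.34 ± 0.41, adjusted p = 9.41e-06). Epha3, an ephrin receptor, read 80.3, 72.3 and 84.8 at P1 and 1.95, 0.895 and 1.2 CPM at P56 (log2 change −5.87 ± 0.27, adjusted p = 7.28e-08), and Grik3 and Gpc3 changed by −6.58 and −6.40. The largest rise was that of Cdh4, or R-cadherin, with 2.2, 2.16 and 2.79 at P1 and 76.4, 97.9 and 117 CPM at P56 (log2 change 5.35 ± 0.19, adjusted p = 1.67e-08); its P14 mean was 4.03 CPM. Epha4 also rose (117, 125 and 106 at P1 and 244, 233 and 262 CPM at P56; 1.09), so that ephrin receptors of the list changed in both directions. Of 32 genes of Wnt, TGF-beta and Notch signalling 16 fell and 9 rose, with a median of −0.45 (−0.69 with library totals alone and −0.26 with the marker score as a term). Bmp7, a ligand of the TGF-beta family, read 56.4, 58.4 and 50.1 at P1 and 2.72, 2.94 and 4.17 CPM at P56 (log2 change −4.07 ± 0.16, adjusted p = 2.61e-08). Sfrp1, a secreted inhibitor of Wnt, read 16.2, 15.5 and 16 at P1 and 1.06, 0.735 and 0.512 CPM at P56 (log2 change −4.36 ± 0.39, adjusted p = 5.85e-06). Wnt11, a Wnt ligand, read 0.316, 0.208 and 0.432 at P1 and 6.57, 7.71 and 5.95 CPM at P56 (log2 change 4.39 ± 0.26, adjusted p = 3.82e-07), and Fzd7 and Axin2 rose by 2.23 and 1.41.

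Immediate early and stress genes showed no common direction: 9 of 19 fell (47.4%, against 31.7% of all genes) and 5 rose (26.3%, against 30.9%), with a median of −0.09. Without replicate 3 of P1 5 fell and the median was 0.15, without replicate 3 of P56 5 fell, and without replicate 1 of P56 the median was −0.50. Myc, the growth factor-induced oncogene, read 2.5, 2.37 and 2.47 at P1 and 0.679, 0.321 and 0.245 CPM at P56 (log2 change −2.55 ± 0.31, adjusted p = 4.9e-05). Egr1 read 2.31, 1.38 and 3.06 at P1 and 0.408, 0.321 and 0.267 CPM at P56 (log2 change −2.75 ± 0.40, adjusted p = 0.000194). Fos, a marker of acute stimulation, read 0.585, 0.588 and 1.15 at P1 and 1.36, 0.689 and 0.334 CPM at P56, with overlapping ages (log2 change 0.04 ± 0.52, adjusted p = 0.957). The rises were Dusp1 (1.68), Zfp36 (1.15), Junb (1.15), Ddit3 (1.01) and Fosl2 (0.98). Of 26 genes of translation and ribosome biogenesis 13 fell and 6 rose (median −0.24); besides the elongation factors, Eif5a2 fell (2.85, 2.69 and 3.19 at P1 and 0.294, 0.321 and 0.245 CPM at P56; −3.33) and Polr1a, the catalytic subunit of RNA polymerase I, rose (0.55). Of 11 phosphagen and oxygen handling genes 4 fell (36.4%, against 31.7% of all genes) and 4 rose (36.4%, against 30.9%). The falls were Ckb (−1.81), Gamt (−1.02), Slc25a5 (−0.52) and Slc25a4 (−0.34). Ckmt2, Mb, Slc6a8 (1.03) and Ak1 (0.39) rose. Their median was 0.02 over the list (−0.22 with library totals alone and −0.09 with upper-quartile scaling). The call of Gamt was lost in 4 fits that left out a library (adjusted p = 0.0655 to 0.0971 without replicate 1 or 2 of P1, or replicate 2 or 3 of P56), and with DESeq2, GC offsets and the marker score. That of Ak1 was lost in 4 such fits (adjusted p = 0.0676 to 0.116 without replicate 1, 2 or 3 of P1, or replicate 2 of P56), and with library totals alone, upper-quartile scaling and the marker score. Ckm, the muscle creatine kinase, read 105, 96.6 and 114 at P1 and 98.2, 106 and 116 CPM at P56, so that its gain on Ckb came with a fall of Ckb.

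Small marker lists completed the check for other cells. Of 10 smooth muscle and pericyte markers, Myh11 (1.27) and Tagln rose, and 1 of the 2 rose without replicate 1 or 2 of either age. Of 2 Schwann markers tested 1 rose and 1 fell, and each call was lost in 2 of the 6 fits that left out a library. The rise was that of Cdh19 (1.88; adjusted p = 0.0504 to 0.0734 without replicate 2 of P1, or replicate 1 of P56). Of 4 erythroid markers, Hba-a1 fell (−0.76; adjusted p = 0.0767 to 0.149 without replicate 1, 2 or 3 of P1, or replicate 2 or 3 of P56). Of 3 skeletal muscle markers, Neb, nebulin, rose (14.2, 12.8 and 10.2 at P1 and 51.2, 28.7 and 59.6 CPM at P56; log2 change 1.91 ± 0.24, adjusted p = 6.98e-05), while Tnnt3, the fast skeletal troponin T, stayed under 1 CPM in all 6 libraries.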

How the data were processed

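RNA was sequenced from 9 pools of CD-1 mouse cardiomyocytes, 3 at each of P1, P14 and P56, after removal of ribosomal RNA. The authors deposited 1 table of raw counts per gene, 15824 genes by 9 libraries; per the submitters' processing notes the tools were featureCounts 1.4.2, STAR 2.4.0g1 and bcl2fastq 2.17.1.14, with the build GRCm38. Whether exons or whole genes were counted, and the strand setting, are not given in the sources used here. The lowest mean count of a gene is 10, so rarer genes were not analysed here. Counts of the 6 libraries compared summed to 45866453 to 58538025, and the common dispersion of 0.0192 gives a coefficient of variation of 13.9% between libraries.

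Genes were filtered with filterByExpr (7 removed, 15817 tested), scaled by TMM and fitted with the quasi-likelihood model of edgeR 4.0.16 in R 4.3.3, with age as the factor over all 9 libraries; P1 and P56 were then contrasted, with Benjamini-Hochberg adjustment over all genes and a threshold of 0.05. The script was tested on simulated counts. Levels are CPM on TMM-scaled library sizes. The SE of a change is its size divided by the square root of the F statistic. Counting intervals and floors cover counting error only. Genes were named by rule: the 12 largest changes in each direction among called genes of at least 10 CPM without overlap and with an established symbol, the 5 largest per direction in each list, and every member of a count of 5 or fewer; other genes were chosen after their values were seen. Some genes that this rule names are not reported here. The comparison, the 52 gene lists and the pairs were chosen with earlier results of these data known. Genes are placed by GENCODE M21, where 15763 of the 15824 were found; promoters are those of RefSeq (GRCm38.p6). In all, 18 alternatives were run, among them DESeq2 1.42.0, other scalings and filters, the mean log2 level of 57 markers of other cells as a term, a replicate block, and each library left out. P14 enters the fit and is otherwise given as a level.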

Additional observations from a re-analysis of the deposited data

How the results depend on the processing

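The 4 counts of genes (rises and falls, of any size and of log2 1 or more) stayed within 1.5 times their values under every alternative but 1: tested against a log2 change of 1, 1342 genes rose and 1706 fell. Leaving out 1 library gave 4341 to 4709 rises and 4411 to 4817 falls, of which 1934 to 1993 and 2388 to 2640 were of log2 1 or more. The changes of pairs of forms kept their direction without each library and without an added count. With library totals alone 10 list medians turned from positive to negative: intercalated disc (−0.02), respiratory chain (−0.07), glycolysis (−0.08), mitochondrial ribosomal proteins (−0.17), splicing regulators (−0.20), numbered zinc fingers (−0.20), calcium cycling (−0.22), phosphagen (−0.22), skeletal muscle markers (−0.22) and cardiomyocyte markers (−0.23). The last 7 also turned with upper-quartile scaling, mitochondrial ribosomal proteins to −0.04, splicing regulators and zinc fingers to −0.07, calcium cycling, phosphagen and skeletal muscle markers to −0.09 and cardiomyocyte markers to −0.10. These scalings move the median of all genes to −0.27 and −0.14. No named gene that passed the test turned its direction under any alternative. Of those that did not pass, Actn2, Ckm, Fos, Nppa, Pdgfra, Ppargc1a, Ryr2 and Tnnt2 changed sign under 1 or more: without replicate 1 of P56 Fos was at −0.60 and Nppa at −0.16, and with library totals alone Ckm was at −0.22 and Actn2 at −0.23. Of 278 genes named, 269 kept their call with library totals alone, 265 without replicate 1 of P56 and 265 without replicate 1 of P1. Replicate numbers do not pair the ages: deviations of same-numbered libraries correlated at 0.052, 0.083 and −0.129, and not every library correlated best with its own number. With a replicate block 4879 genes rose and 5119 fell. Genes listed at under 1 CPM in both ages rest on few counts and their changes are imprecise at this depth; P1 and P56 have 3 pools each, which limits every exact test to p = 0.1.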

Other observations

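Genes of the X chromosome were lower at P56 more often than those of other chromosomes: of 540 X-linked genes tested 21.3% rose and 42.8% fell, with a median change of −0.25, while the shares of falls on the other chromosomes ran from 28.0% to 36.8%. On the Y chromosome, Uty read 335, 359 and 368 at P1 and 472, 505 and 453 CPM at P56 (log2 change 0.43 ± 0.07, adjusted p = 0.000281), a call lost with library totals alone (adjusted p = 0.0633), and Ddx3y read 52.9, 56.3 and 58.2 at P1 and 84.3, 84.6 and 76.5 CPM at P56 (log2 change 0.55 ± 0.09, adjusted p = 0.000327). The sex of the pooled animals is not in the labels used here, and its part in these values was not tested.

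Ctla4, among the 12 largest rises, lies beside Cd28 and Icos, genes of T cells. Cd28 read 1.61, 1.97 and 1.5 at P1 and 36.8, 34.7 and 39.2 CPM at P56 (log2 change 4.45 ± 0.13, adjusted p = 5.35e-09), and Raph1, on the other side of Ctla4 and Cd28, read 407, 396 and 400 at P1 and 627, 588 and 568 CPM at P56 (log2 change 0.57 ± 0.06, adjusted p = 1.25e-05). The 10 leukocyte markers summed to 5.12 to 7.3 CPM at P1 and 10.6 to 23.1 CPM at P56, and their part in these rises was not tested.

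Noncoding and pseudogene classes differed in their shares. Of 614 lincRNA genes 40.2% rose and 23.9% fell, and of 388 processed pseudogenes 13.4% rose and 33.2% fell. Long and small noncoding RNA took 7.04% ± 0.351 of counts at P1 and 8.52% ± 0.956 at P56 (SD, n = 3; exact permutation p = 0.1, the smallest possible, 0.167 after adjustment over 10 shares). Malat1 took 2.17% at P1 and 2.81% at P56, and Gm26917 2.53% and 2.29%. Without the 10 genes with most counts, these among them, the noncoding share was 2.8% at P1 and 4.06% at P56. In the fifth of protein-coding genes with the shortest span 20.6% rose and 35.9% fell. Rises were more common among abundant protein-coding genes, with 47.0% in the fifth of highest mean level against 16.6% in the lowest. Of 325 numbered zinc finger genes 106 rose (32.6%, against 30.9% of all genes) and 83 fell (25.5%, against 31.7%), while 82 rose and 111 fell with upper-quartile scaling and 55 rose and 136 fell with library totals alone.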
